A study of Mus musculus with 12 samples.

Results

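Knockdown of TBLR1 was examined in fat cells under β-adrenergic stimulation: 3 arrays of cells with TBLR1 shRNA and isoproterenol were set against 3 arrays of cells with control shRNA and isoproterenol, which were 6 of the 12 arrays of the series and were taken by their labels alone. The cells were adipocytes of the 3T3-L1 line, an established mouse fibroblast line that can be differentiated into fat cells. On day 9 of differentiation both groups had received adenovirus at a multiplicity of infection of 500, carrying an shRNA against TBLR1 in the knockdown group and a control sequence in the other. After 3 days both spent 2 h in Krebs-Ringer buffer, followed by 3 h with 10 µM isoproterenol. The other 6 arrays, 3 with TBLR1 shRNA and 3 with control shRNA, held cells that were not given isoproterenol, and they are used here where the knockdown effects with and without the agonist are compared. Both groups thus carry an adenovirus, a single shRNA was used against TBLR1, and the labels do not say whether replicates were separate cultures, so a p-value measures the spread between these arrays, which may be technical. In RNA from whole cultures, fewer cells of a kind and less RNA per cell cannot be told apart. The comparison covered 15270 probe sets with 1 gene symbol, and the series concerns how TBLR1 affects the release of lipid from white fat.

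TBLR1, the product of Tbl1xr1, is a WD40-repeat protein that belongs to nuclear corepressor complexes and helps nuclear receptors swap their corepressors for coactivators. Isoproterenol activates β-adrenergic receptors, which raise cAMP and activate protein kinase A. In fat cells this kinase phosphorylates the lipid droplet coat and hormone-sensitive lipase and frees the coactivator of adipose triglyceride lipase, so that stored triglyceride is broken down to fatty acids and glycerol. Protein kinase A also phosphorylates CREB, a factor that binds cAMP response elements in promoters and switches on early response genes.

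Windows of 300 bases, from 250 before to 50 after the annotated start of transcription, are shown for 6 genes on which the results below turn and whose window holds one of the 4 motifs searched. The windows are RefSeq's on build GRCm38.p6, written 5′ to 3′ on the strand of the gene, and capitals mark the motif. For Pck1, which had the most negative difference between the knockdown effects with and without isoproterenol, and for Plk3, which was also among the 12 most negative, the capitals are TTACGTCA, a variant of the cAMP response element, or its reverse complement. The Pck1 window lies at chr2:173152823-173153122 on the plus strand and the Plk3 window at chr4:117133914-117134213 on the minus strand.
Pck1: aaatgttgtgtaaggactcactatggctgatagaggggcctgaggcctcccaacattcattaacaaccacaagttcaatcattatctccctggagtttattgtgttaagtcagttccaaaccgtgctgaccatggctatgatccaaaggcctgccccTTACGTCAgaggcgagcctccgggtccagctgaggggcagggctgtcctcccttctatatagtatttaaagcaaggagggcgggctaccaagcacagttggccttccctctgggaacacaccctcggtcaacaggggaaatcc
Plk3: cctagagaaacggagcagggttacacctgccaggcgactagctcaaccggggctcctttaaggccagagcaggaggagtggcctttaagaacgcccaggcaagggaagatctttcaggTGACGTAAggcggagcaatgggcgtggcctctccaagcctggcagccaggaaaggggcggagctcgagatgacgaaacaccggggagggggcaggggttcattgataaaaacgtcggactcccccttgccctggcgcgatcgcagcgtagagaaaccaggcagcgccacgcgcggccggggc
Ifit1, Rsad2, Ifih1 and Cxcl10 were among the 12 largest rises with TBLR1 shRNA under isoproterenol, and the capitals mark GAAANNGAA, the core of interferon-stimulated response elements, or its reverse complement. Ifit1 lies at chr19:34640639-34640938 on the plus strand, Rsad2 at chr12:26456403-26456702 on the minus strand, Ifih1 at chr2:62646206-62646505 on the minus strand and Cxcl10 at chr5:92348840-92349139 on the minus strand. In Ifit1 the first pair of matches overlap and read as a single run of capitals.
Ifit1: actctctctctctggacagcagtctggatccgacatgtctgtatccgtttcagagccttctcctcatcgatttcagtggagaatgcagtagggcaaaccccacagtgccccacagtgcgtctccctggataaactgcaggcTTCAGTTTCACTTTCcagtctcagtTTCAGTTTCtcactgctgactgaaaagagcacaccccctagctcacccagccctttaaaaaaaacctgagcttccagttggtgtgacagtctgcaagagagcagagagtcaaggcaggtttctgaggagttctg
Rsad2: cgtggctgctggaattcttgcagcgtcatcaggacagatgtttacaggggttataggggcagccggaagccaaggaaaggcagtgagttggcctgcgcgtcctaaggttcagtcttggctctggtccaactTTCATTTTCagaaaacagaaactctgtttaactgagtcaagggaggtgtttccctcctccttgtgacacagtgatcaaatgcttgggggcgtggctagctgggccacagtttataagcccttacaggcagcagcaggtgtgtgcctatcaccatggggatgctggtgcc
Ifih1: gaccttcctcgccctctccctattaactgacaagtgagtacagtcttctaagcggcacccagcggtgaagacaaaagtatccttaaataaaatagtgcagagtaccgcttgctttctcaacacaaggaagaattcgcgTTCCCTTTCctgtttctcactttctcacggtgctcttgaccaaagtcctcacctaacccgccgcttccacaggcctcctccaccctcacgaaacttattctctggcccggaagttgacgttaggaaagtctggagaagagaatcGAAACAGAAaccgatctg
Cxcl10: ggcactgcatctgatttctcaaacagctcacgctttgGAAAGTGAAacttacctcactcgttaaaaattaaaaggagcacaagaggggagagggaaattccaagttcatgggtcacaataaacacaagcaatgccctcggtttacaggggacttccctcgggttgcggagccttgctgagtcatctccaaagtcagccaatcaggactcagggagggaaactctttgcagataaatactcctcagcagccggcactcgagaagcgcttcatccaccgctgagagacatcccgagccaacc
Windows were held for 8 of the 12 largest rises, and 4 of these 8 genes (50%) had GAAANNGAA on either strand, against 8.44% of the 12273 tested genes that had a window and 9.76% of all 27025 genes in the table. It was in 0 of 9 windows of the 12 largest falls. The motif was not confined to the rises: 3 of 11 windows of the 12 most negative differences (27.3%) and 3 of 9 of the 12 most positive (33.3%) held it. Among CREB and CREM targets it was in 5 of 29 (17.2%), and among cholesterol synthesis genes in 2 of 13 (15.4%). For TTACGTCA the count was 2 of the 11 genes with a window among the 12 most negative differences (18.2%), against 0.75% of the tested genes and 0.581% of all genes. The 2 were Pck1 and Plk3. Pck1 was picked for this report before the count, so this share does not measure enrichment. Among CREB and CREM targets the count was 1 of 29 (3.45%). TGACGTCA, the full palindromic cAMP response element, was in none of the 11 windows of the most negative differences and in 3.08% of those of tested genes and 2.03% of all. Among CREB and CREM targets it was in 3 of 29 (10.3%). CACCCCAC, a sterol-related sequence, was in none of 13 windows of cholesterol synthesis genes and in 3.89% of those of tested genes and 3.3% of all. Where a gene had several windows, a match in any of them was counted, on both strands. The sets are small, and these are matches of letters in short windows that give no measure of binding.

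The targeted gene was lower on every knockdown array. Tbl1xr1 read 6.48, 6.41 and 6.37 on the log2 scale with TBLR1 shRNA, against 7.23, 7.34 and 7.29 with control shRNA. The groups did not overlap, and 54.9% of the control signal remained (log2 difference -0.86 ± 0.04 SE, n = 3 each, adjusted p = 2.3e-10, limma). The knockdown readings lay below the array median of 7.14, at levels called near the floor for other genes below. Background signal was not measured, so the share of transcript that remained may be smaller than 54.9%. An exact two-sided permutation test over the 6 arrays gave p = 0.1, the smallest that its 20 arrangements allow. Knockdown was of the same order without isoproterenol, and the difference between both knockdown effects on Tbl1xr1 was -0.07 (95% interval -0.20 to 0.06, not called).

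The arrays had been brought to the same distribution before deposit, with a median of 7.14 on each. The arrays with TBLR1 shRNA correlated with those with control shRNA at 0.981 to 0.984 over all named probe sets under isoproterenol. The labelled cell type was checked against its markers: the 16 measured fat cell markers averaged 11.25 to 11.30 with TBLR1 shRNA and 11.78 to 11.82 with control shRNA, far above the array median. Adipoq, the adiponectin gene, averaged 14.30 with TBLR1 shRNA and 14.54 with control shRNA, and Fabp4, the fat cell fatty acid binding protein, averaged 14.44 and 14.49. Lep, which encodes leptin, stood near the floor of the arrays, at 6.37 and 6.34. Plin1 and Cfd were not analysed here. The 8 lymphocyte, 10 endothelial and 10 muscle markers averaged under 6.4 on every array. The 3′ to 5′ signal of the actin control, a measure of RNA integrity, differed by 0.99 to 1.05 on the log2 scale with TBLR1 shRNA and by 0.98 to 1.05 with control shRNA.

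Under isoproterenol, TBLR1 shRNA cells differed from control shRNA cells at 6372 of 15270 probe sets, called at an adjusted p under 0.05 in limma: 2975 were higher (19.5% of those tested) and 3397 were lower (22.2%). Most differences were small. A change of at least 1.5-fold was called at 823 probe sets, 444 higher and 379 lower, and of at least 2-fold at 210, of which 157 were higher and 53 lower. The median over all tested probe sets was -0.01. Among the listed groups, the median difference was highest for interferon effectors (2.07) and lowest for cholesterol synthesis (-1.01), with fatty acid synthesis at -0.62 and the lipases at -0.43. In an alternative, the deposited values of each array were shifted by a constant that made the mean of the bacterial hybridisation controls equal. This shift was added to the deposited scaling and did not replace it. The mean of these controls was 11.14 to 11.22 with TBLR1 shRNA and 11.19 to 11.33 with control shRNA, so the groups overlapped. On this hybridisation control scale 5114 probe sets were higher and 1701 lower (75.0% of calls higher, against 46.7% as deposited). The median of all probe sets moved to 0.10, and small differences near 0 change side with this choice. All differences below are TBLR1 shRNA minus control shRNA with isoproterenol, in log2 units ± SE, unless another comparison is named. Counts of members of a list that rose or fell are to be read against 19.5% higher and 22.2% lower over all probe sets. The lists were chosen with earlier results of these data known. Such counts, including those of differences between knockdown effects, therefore do not measure enrichment.

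**Figure D1:**
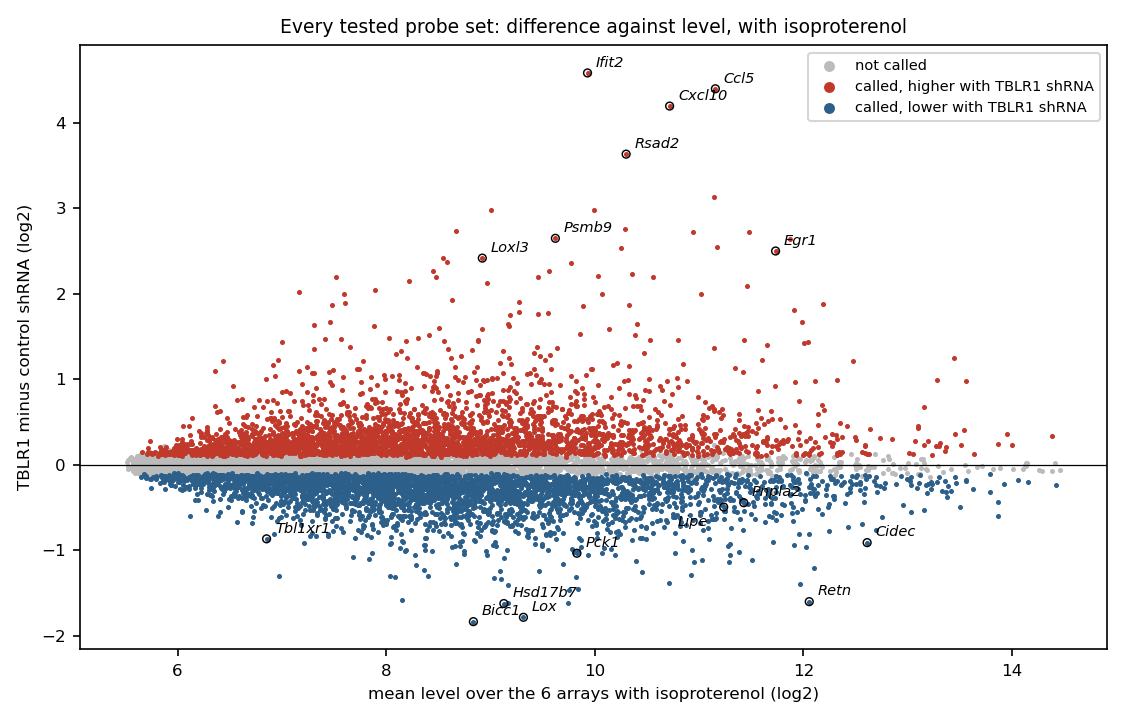
Difference between TBLR1 and control shRNA with isoproterenol (y axis, log2) against the mean level over the 6 arrays (x axis, log2) for each of the 15270 tested probe sets, coloured by call. Ifit2, Ccl5 and Cxcl10 lie above 4, while Bicc1, the largest fall, lies at -1.83.

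The enzymes that break down stored triglyceride were mostly lower. Of 10 measured lipase genes 8 fell, 1 rose and 1 did not pass, with a median of -0.43, against 22.2% lower, 19.5% higher and a median of -0.01 over all probe sets. Pnpla2, which encodes adipose triglyceride lipase and starts the breakdown, read 11.22, 11.20 and 11.20 with TBLR1 shRNA, against 11.69, 11.62 and 11.64 with control shRNA. Lipe, which encodes hormone-sensitive lipase, read 10.85, 11.13 and 10.99 with TBLR1 shRNA, against 11.50, 11.49 and 11.46 with control shRNA. Mgll, the monoglyceride lipase of the last step, read 8.44, 8.32 and 8.33, against 8.68, 8.97 and 8.72 with control shRNA. In each of these 3 genes the highest knockdown array lay below the lowest control array. Pnpla2 fell by 0.44 ± 0.04 (adjusted p = 1.22e-07), Lipe fell by 0.49 ± 0.06 (adjusted p = 2.07e-06) and Mgll fell by 0.43 ± 0.08 (adjusted p = 0.000415), so that 73.6%, 71.1% and 74.4% of the control signal remained. The strongest fall of the list was Ces1f, a carboxylesterase, at 9.72, 9.49 and 9.61 with TBLR1 shRNA, against 10.50, 10.66 and 10.58 with control shRNA (-0.97 ± 0.07). Pnpla3 (-0.56), Abhd6 (-0.51), Ces1d, a triglyceride hydrolase (-0.41), and the lysosomal acid lipase Lipa (-0.15) also fell. Abhd12, a lysophospholipid lipase, was the member that rose (0.36 ± 0.04), and Ces1c, close to the floor at about 6.3, differed by -0.06. With arrays centred on hybridisation controls the list kept 1 rise and 7 falls and its median was -0.32; Lipa lost its call there (-0.04) and without TBLR1 shRNA array 2 or control array 1 (-0.17 to -0.13 with each array left out in turn). The difference between the knockdown effects with and without isoproterenol was called by limma for none of the 10 (2 had an unadjusted p under 0.05); for Lipe it was 0.07 (95% interval -0.10 to 0.24) and for Pnpla2 -0.10 (-0.22 to 0.01).

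Regulators of the lipases moved both ways and were called about as often as all probe sets. Abhd5, the coactivator of adipose triglyceride lipase also called CGI-58, read 10.53, 10.36 and 10.47 with TBLR1 shRNA, against 10.78, 10.72 and 10.75 with control shRNA (-0.29 ± 0.05, adjusted p = 0.000162). G0s2, which encodes an inhibitor of the same lipase, read 9.78, 9.73 and 9.77 with TBLR1 shRNA, against 9.36, 9.47 and 9.41 with control shRNA (0.35 ± 0.12, adjusted p = 0.0213). The groups did not overlap for either gene, the coactivator being lower and the inhibitor higher. Hilpda, another inhibitor of that lipase, was 1.11-fold higher (adjusted p = 0.0497). The glycerol channel gene Aqp7 fell by 0.29 ± 0.05, and Hcar2, whose product is an antilipolytic receptor, fell by 0.23 ± 0.08. Of the 10 measured regulators 2 rose, 3 fell and 5 did not pass, against 19.5% higher and 22.2% lower over all probe sets. Their median of -0.04 became 0.07 on the hybridisation control scale. With each array left out in turn, the call of G0s2 ended without array 1 or 3 of either group (0.33 to 0.38), that of Hcar2 without TBLR1 shRNA array 2 or control array 1 or 3 (-0.27 to -0.18), and that of Hilpda in 5 of 6 cases (0.12 to 0.18).

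**Figure D2:**
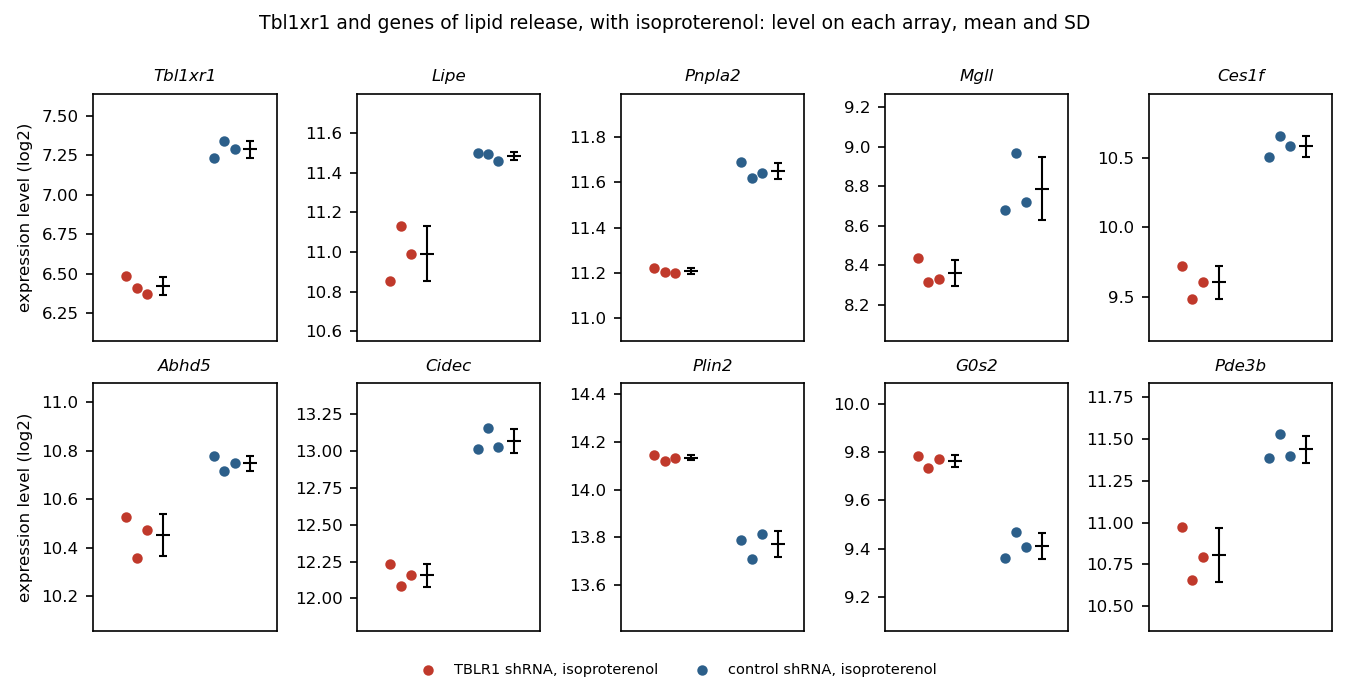
Expression level (y axis, log2) of Tbl1xr1 and 9 genes of lipid release on each of the 6 arrays with isoproterenol; red points are TBLR1 shRNA, blue points control shRNA, and black marks the mean and SD of 3 arrays. In each panel the 2 groups are apart, with Plin2 and G0s2 higher and the other genes lower with TBLR1 shRNA.

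On the lipid droplet, the coat genes did not move as a block. Cidec, which enlarges droplets, read 12.24, 12.08 and 12.16 with TBLR1 shRNA, against 13.01, 13.16 and 13.03 with control shRNA, and fell to 53.3% of the control signal (-0.91 ± 0.05, adjusted p = 7.3e-10). Plin2, the perilipin of small droplets, read 14.14, 14.12 and 14.13 with TBLR1 shRNA, against 13.79, 13.71 and 13.81 with control shRNA, and rose by 0.36 ± 0.05. These are opposite changes of droplet proteins, and in both genes the groups did not overlap. Plin4 (-0.35), the dehydrogenase gene Hsd17b11 (-0.33), the caveolin gene Cav1 (-0.32), the seipin gene Bscl2 (-0.28) and Fitm2 (-0.14) fell as well, while 7 of the 14 members did not pass. The list had 6 falls and 1 rise and a median of -0.08, which was 0.03 with 5 falls and 1 rise on the hybridisation control scale. The call of Fitm2 ended on that scale and without control array 2 (-0.16 to -0.13 with each array left out).

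Upstream of the lipases, the genes that carry the adrenergic signal were called about as often as all probe sets. Of 27 measured genes for G proteins, adenylyl cyclases, protein kinase A and their regulators, 6 rose, 5 fell and 16 did not pass, against 19.5% higher and 22.2% lower over all probe sets; the median of -0.03 became 0.08, with 9 rises and 2 falls, on the hybridisation control scale. Prkar2b, the regulatory RIIβ subunit of protein kinase A that predominates in fat cells, read 10.28, 10.03 and 10.14 with TBLR1 shRNA, against 10.72, 10.83 and 10.69 with control shRNA (-0.60 ± 0.08, adjusted p = 9.34e-06). Its groups did not overlap, whereas the catalytic subunit gene Prkaca differed by -0.01 ± 0.04 and its groups overlapped. Prkacb, the other catalytic subunit gene of the list, rose by 0.28 ± 0.04. Falls were also called for the receptor kinase Grk5 (-0.35), the regulatory subunit Prkar1a (-0.20), the anchoring protein Akap1 (-0.14) and the arrestin Arrb1 (-0.13). Rises were called for Rapgef3, which encodes the cAMP-activated exchange factor Epac1 (0.57), the anchoring protein Akap12 (0.34), Akap8 (0.26), the kinase inhibitor Pkig (0.23) and the inhibitory G protein Gnai2 (0.18). The calls of Prkar1a (-0.09), Akap1 (-0.03) and Arrb1 (-0.02) ended on the hybridisation control scale.

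Among the enzymes that degrade cyclic nucleotides, Pde3b, the insulin-activated phosphodiesterase of fat cells, was lower: 10.97, 10.65 and 10.79 with TBLR1 shRNA, against 11.38, 11.53 and 11.40 with control shRNA (-0.63 ± 0.09, adjusted p = 2.47e-05). Pde1a fell by 0.44 ± 0.06. Pde2a read 7.91, 7.94 and 7.92, against 7.29, 7.35 and 7.34 with control shRNA, and rose by 0.59 ± 0.04, and Pde7a (0.19) and Pde1b (0.18) also rose. In all 3 of 14 rose and 2 fell (5 and 2 on the hybridisation control scale), against 19.5% higher and 22.2% lower over all probe sets. The remaining 9 did not pass, among them the cAMP-specific and cAMP-induced Pde4b, at 0.11 ± 0.06.

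Genes that re-esterify fatty acids were lower in part, and for triglyceride synthesis the balance depended on the scaling. Glyceroneogenesis supplies glycerol phosphate in fat cells, and its key enzyme is the cytosolic phosphoenolpyruvate carboxykinase encoded by Pck1. Pck1 read 9.36, 9.27 and 9.31 with TBLR1 shRNA, against 10.21, 10.59 and 10.24 with control shRNA, and the groups did not overlap. It fell by 1.03 ± 0.08, to 48.9% of the control signal (adjusted p = 1.81e-08). Of the 15 measured members of the list 9 fell and 1 rose, with a median of -0.25 (-0.14, with 7 falls and 2 rises, on the hybridisation control scale). Pcx, pyruvate carboxylase, read 8.96, 9.09 and 8.99 with TBLR1 shRNA, against 9.77, 9.80 and 9.76 with control shRNA (-0.76 ± 0.04). The kinase Pdk1, which inhibits pyruvate dehydrogenase, varied more: 8.77, 8.11 and 8.33, against 9.20, 9.42 and 9.21 with control shRNA (-0.88 ± 0.18, adjusted p = 0.000656). Pck2, the mitochondrial carboxykinase (-0.55), and Gpd2, the mitochondrial glycerol phosphate dehydrogenase (-0.49), fell, whereas the aspartate aminotransferase Got1 rose by 0.57 ± 0.07. In triglyceride synthesis 8 of 16 fell and 2 rose, with a median of -0.11. On the hybridisation control scale 4 fell and 3 rose, with a median of 0.00. The acyltransferase Gpat3 read 10.63, 10.69 and 10.67, against 11.47, 11.55 and 11.57 with control shRNA (-0.87 ± 0.04), and the phosphatidate phosphatase Lpin1 read 9.76 on each of the 3 knockdown arrays, against 10.45, 10.67 and 10.50 with control shRNA (-0.79 ± 0.05). Both fell with no overlap. Mogat1 fell by 0.48 ± 0.07, while Agpat4 (0.29) and Lpin2 (0.22) rose. The call of Lpin2 ended without array 2 of either group (0.18 to 0.26 with each array left out).

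The list of 40 measured CREB and CREM targets was split. Under isoproterenol 13 members were higher, 14 were lower and 13 did not pass, and the median was -0.01 (0.10 on the hybridisation control scale). Without isoproterenol the median of the same genes was 0.31. The difference between the knockdown effects was called at 366 probe sets of the whole table, 163 higher (1.07% of those tested) and 203 lower (1.33%), so that 44.5% of calls were higher (59.9% on the hybridisation control scale), and in this list it was lower for 19 members and higher for 1. The median response to isoproterenol was 0.50 with TBLR1 shRNA and 0.91 with control shRNA. These responses share arrays with the knockdown comparison and are given beside it as values.

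Irs2, an adaptor of insulin signalling that cAMP induces, read 9.97, 9.99 and 9.80 with TBLR1 shRNA and isoproterenol, against 10.76, 10.88 and 10.75 with control shRNA (-0.88 ± 0.09, adjusted p = 4.84e-07). Ppargc1a, which encodes the coactivator PGC-1α, read 9.76, 9.52 and 9.57, against 10.32, 10.59 and 10.34 with control shRNA (-0.80 ± 0.07, adjusted p = 1.25e-07). Nfil3, a bZIP repressor of the clock, read 10.98, 10.69 and 10.79, against 11.38, 11.44 and 11.41 with control shRNA (-0.59 ± 0.07). All 3 were lower in every knockdown array than in any control array. Falls without overlap were also called for the Ras-like GTPase Rasd1 (-1.05), the calcium channel regulator Gem (-1.24), the factors Klf15 (-0.76) and Klf4 (-0.70), the orphan receptor Nr4a2 (-0.60), Crem, whose short form ICER represses cAMP-induced genes (-0.52), and the salt-inducible kinase Sik1 (-0.48). Other early genes were higher: the zinc finger factors Egr1 (12.86, 13.08 and 13.01 with TBLR1 shRNA, against 10.51, 10.39 and 10.55 with control shRNA) and Egr2 rose by 2.50 ± 0.13 and 2.15 ± 0.12. Sgk1, a kinase gene, rose by 1.31 ± 0.08, Ier2 by 1.12 ± 0.10 and the cytokine Il6 by 0.62 ± 0.16. The 17 regulators of CREB itself were split, 3 higher and 4 lower (7 and 2 on the hybridisation control scale). Nr4a1, an orphan receptor and an early cAMP target, read 11.33, 11.49 and 11.37 with TBLR1 shRNA, against 11.28, 11.49 and 11.33 with control shRNA (0.04 ± 0.09), and its groups overlapped.

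Comparison with the unstimulated cells tested which of these differences depended on isoproterenol. The knockdown effect on Pck1 was -1.03 with isoproterenol and 0.54 without, a difference of -1.57 ± 0.11 (95% interval -1.80 to -1.34, adjusted p = 1.62e-06), the most negative of all tested probe sets. Isoproterenol raised Pck1 by 0.89 with TBLR1 shRNA and by 2.46 with control shRNA. For Irs2 the effect was -0.88 with isoproterenol and 0.54 without (difference -1.42 ± 0.12, adjusted p = 1.37e-05), for Ppargc1a -0.80 and 0.29 (-1.09 ± 0.10, adjusted p = 1.95e-05), and for Nfil3 -0.59 and 0.48 (-1.07 ± 0.10, adjusted p = 3.93e-05). In these 4 genes TBLR1 shRNA cells were above control shRNA cells before stimulation and below them after it. Nr4a1 and Fos showed another form of the same sign: Nr4a1 was 0.04 with isoproterenol and 1.21 without (-1.18 ± 0.12), and Fos, a subunit of the AP-1 factor, 0.40 and 1.69 (-1.29 ± 0.18). Prom1, which encodes the membrane protein prominin, read 6.36, 6.28 and 6.34 with TBLR1 shRNA and isoproterenol, against 7.67, 7.65 and 7.57 with control shRNA, and its knockdown effect was -1.30 with isoproterenol and -0.27 without (-1.03 ± 0.07, adjusted p = 9.67e-07). The knockdown readings of Prom1 lay near the floor, which may limit the size of its effects. Rasd1 (-1.05 and -0.03), the centromere protein gene Cenpu (-1.30 and -0.21), the F-box gene Fbxo21 (-0.94 and -0.08) and the polo-like kinase Plk3 (-0.69 and 0.29) followed, and the deadenylase Noct was 0.23 with isoproterenol and 1.15 without. Of the 43 genes named in the text whose difference was called, 28 kept the call with each of the 12 arrays left out in turn and 15 lost it in some of these fits. The genes named so far in this paragraph were among the 28, while Nr4a2 (-0.75 to -0.53) was among the 15. The rise of Fos under isoproterenol was not called without TBLR1 shRNA array 2 or control array 1 (0.32 to 0.46).

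**Figure D3:**
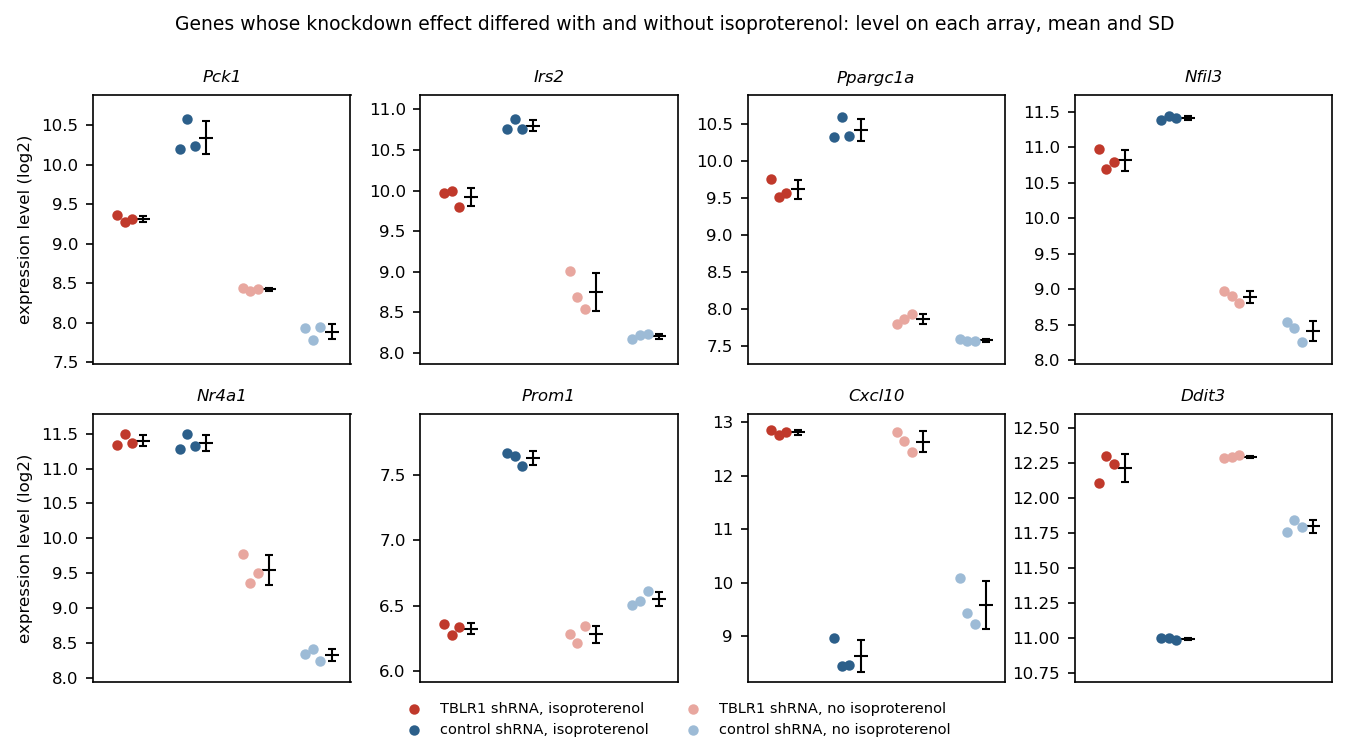
Expression level (y axis, log2) of 8 genes on each of the 12 arrays; dark red is TBLR1 shRNA and dark blue control shRNA with isoproterenol, light red and light blue the same without it, and black marks the mean and SD of 3 arrays. Pck1, Irs2, Ppargc1a and Nfil3 are lower with TBLR1 shRNA under isoproterenol and higher without it.

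Of the 203 probe sets with a more negative effect under isoproterenol, 199 had been raised by isoproterenol in control shRNA cells; 106 of these were raised with TBLR1 shRNA too and 92 were not called there. With isoproterenol 146 of the 203 were lower in the knockdown, against 22.2% of all tested probe sets, and 44 of the 146 had been higher without it. Of the 163 probe sets with a more positive effect, 137 had been lowered by isoproterenol in control shRNA cells, and 99 of them were not called with TBLR1 shRNA. With isoproterenol 123 of the 163 were higher in the knockdown, against 19.5% of all tested probe sets. The difference shares arrays with the response of control cells and with the knockdown effect, so these counts describe how the terms add up and test nothing further. The shares of all probe sets raised or lowered by isoproterenol are not given here, so the counts of responses have no background beside them. Among the most positive differences, Ddit3, which encodes the stress factor CHOP, read 12.11, 12.30 and 12.25 with TBLR1 shRNA and isoproterenol, against 11.00, 11.00 and 10.98 with control shRNA, and its effect was 1.23 with isoproterenol and 0.50 without (0.73 ± 0.07, adjusted p = 1.86e-05). The EGF receptor feedback inhibitor Errfi1 (1.62 and 0.81), the EGF-like ligand Hbegf (1.47 and 0.74), the serpin Serpinb2 (2.01 and 1.29), the factor Klf6 (1.91 and 1.27), the secreted Metrnl (1.12 and 0.47) and thrombomodulin, Thbd (0.69 and 0.06), were larger with isoproterenol than without. Cd274, which encodes PD-L1, was 0.86 with isoproterenol and 0.12 without (0.74 ± 0.14). Snai2, a transcriptional repressor, was lower in both, at -1.04 and -1.65. The called differences of Errfi1 (0.69 to 1.01), Klf6 (0.52 to 0.80) and Hbegf (0.60 to 0.89) were lost without any one of 8 to 10 of the 12 arrays.

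Fat cell identity and secretion were lower in part. Of 16 measured fat cell markers 14 fell and none rose (median -0.33, and -0.28 without isoproterenol). On the hybridisation control scale 9 fell (median -0.21). The largest of these falls were in secreted or metabolic products: Retn, the resistin gene, read 11.16, 11.45 and 11.16 with TBLR1 shRNA, against 12.80, 12.92 and 12.85 with control shRNA (-1.60 ± 0.09), Agt, the angiotensinogen gene, fell by 1.38 ± 0.04 and Car3, a carbonic anhydrase of fat cells, fell by 1.11 ± 0.05. Each lay clear of the control arrays. Pparg, the master factor of fat cells, differed far less (-0.13 ± 0.05, adjusted p = 0.0397, no longer called with array 2 or 3 of either group left out, at -0.16 to -0.10, or on the hybridisation control scale), while its partner Cebpa read 9.97, 9.97 and 9.87, against 10.56, 10.59 and 10.59 with control shRNA (-0.64 ± 0.05). Of the 25 adipogenic factors 13 fell and 5 rose, with Klf5, a factor of early adipogenesis, the largest rise (1.36 ± 0.12); on the hybridisation control scale the list had 7 in each direction. Of 23 adipokines and other secreted products 14 fell and 4 rose (median -0.19; 10 and 5 on that scale). Nrg4, a secreted ligand of brown and white fat cells, was at 50.2% of control (-0.99 ± 0.07), and the angiogenic factor Vegfa fell by 0.82 ± 0.05; the knockdown effect on both was more negative with isoproterenol than without (differences -0.41 ± 0.09 and -0.52 ± 0.07), though that of Nrg4 was not called without any one of 8 of the 12 arrays (-0.49 to -0.36). Metrnl rose by 1.12 ± 0.06. In the thermogenic list Ppargc1a was the largest of 6 falls among 19 measured members, and Ucp1 did not pass (-0.02); the median of this list was -0.02 as deposited and 0.10 on the hybridisation control scale. Markers of preadipocytes and fibroblasts moved in both directions, 6 higher and 3 lower of 19 (8 and 2 on that scale), with Twist1 (1.33) and Thy1 (0.87) higher and Dlk1, an inhibitor of adipogenesis, lower (-0.67). The mean log2 level of the 19 was 8.43 to 8.49 on the arrays with TBLR1 shRNA and 8.30 to 8.36 on those with control shRNA. Its part in the fall of the fat cell markers was not tested. Of the lymphocyte, endothelial and muscle markers, 1 endothelial gene was higher and 1 muscle gene lower.

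Lipid synthesis was lower at most of its genes. Of 15 measured genes of cholesterol synthesis 14 fell and none rose, with a median of -1.01 (-0.90 on the hybridisation control scale). Hsd17b7, a ketoreductase of the late pathway, read 8.38, 8.33 and 8.24 with TBLR1 shRNA, against 9.88, 10.00 and 9.93 with control shRNA (-1.62 ± 0.05, adjusted p = 2.89e-12). Tm7sf2, a sterol reductase, read 8.95, 9.17 and 8.95, against 10.47, 10.46 and 10.52 with control shRNA (-1.46 ± 0.06). Cyp51, the lanosterol demethylase, read 9.20, 9.11 and 9.05, against 10.55, 10.55 and 10.62 with control shRNA (-1.46 ± 0.05). More than a log2 unit thus separated the groups at 3 enzymes that act after lanosterol is formed. Pmvk (-1.25), Msmo1 (-1.21) and Nsdhl (-1.14) followed, and Ggps1, which feeds protein prenylation, did not pass (0.01). In fatty acid synthesis 13 of 18 fell and 4 rose, with a median of -0.62. Acss2, which activates acetate, read 10.39, 10.18 and 10.26 with TBLR1 shRNA, against 11.58, 11.53 and 11.57 with control shRNA (-1.28 ± 0.06), and the desaturases Fads2 (-1.00), Scd3 (-0.99) and Scd2 (-0.88), the elongase Elovl6 (-0.90) and malic enzyme, Me1 (-0.86), also fell. Srebf1, which encodes the factor SREBP-1, rose by 0.57 ± 0.04 and the elongase Elovl5 by 0.62 ± 0.05. The difference between the knockdown effects with and without isoproterenol was called by limma for no gene of either list, with an unadjusted p under 0.05 at 2 of the 15 and 3 of the 18.

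Genes of mitochondrial metabolism had more falls than rises as deposited, and how many fell depended on the scaling. In the breakdown of branched-chain amino acids 20 of 25 genes fell and 1 rose (median -0.37, and -0.30 without isoproterenol). On the hybridisation control scale 17 fell and 1 rose. Pccb, a subunit of propionyl-CoA carboxylase, read 8.46, 8.41 and 8.44 with TBLR1 shRNA, against 9.43, 9.56 and 9.49 with control shRNA (-1.05 ± 0.05), and the dehydrogenase Aldh6a1 (-0.94) and the hydrolase Hibch (-0.86) also fell, while the cytosolic aminotransferase Bcat1 rose by 0.34. In the TCA cycle 11 of 20 fell and 2 rose (median -0.15), against 7 and 4 (median -0.04) on the hybridisation control scale, with fumarase, Fh1, at -0.60 ± 0.04 and Idh2, the mitochondrial isocitrate dehydrogenase, at 0.68 ± 0.05. Of 44 respiratory chain subunits 23 fell and 2 rose, with a median of -0.12, but on the hybridisation control scale 7 fell and 3 rose, with a median of -0.0038. In fatty acid oxidation 10 of 24 fell and 5 rose (5 and 6 on the hybridisation control scale); Cpt1a, which controls entry of fatty acids into mitochondria, read 9.07, 8.79 and 8.88 with TBLR1 shRNA, against 7.82, 7.86 and 7.87 with control shRNA, and rose by 1.06 ± 0.06. It stood opposite to Acadm, the medium-chain dehydrogenase, which fell by 0.54 ± 0.04. Genes of fatty acid uptake and activation were split, 4 higher and 3 lower of 13 (4 and 1 on the hybridisation control scale), against 19.5% and 22.2% over all probe sets. Acsl3 fell to 50% of control (-1.00 ± 0.05), while Angptl4, an inhibitor of lipoprotein lipase, rose by 0.46 ± 0.05.

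The largest rises were in genes induced by interferon. Ifit2, an antiviral protein that binds RNA, read 12.19, 12.20 and 12.27 with TBLR1 shRNA, against 7.88, 7.46 and 7.59 with control shRNA (4.58 ± 0.15, 23.9-fold, adjusted p = 3.49e-12). Rsad2, which encodes viperin, read 12.26, 11.96 and 12.13, against 8.87, 8.24 and 8.35 with control shRNA (3.63 ± 0.18). Ifit1 read 12.81, 12.59 and 12.74, against 10.21, 9.33 and 9.20 with control shRNA (3.14 ± 0.23). Each gene stood at least 2 log2 units above its highest control array. Of 24 measured interferon effectors 23 rose and 1 fell (median 2.07, and 1.74 without isoproterenol), the fall being Ifi27 (-0.76 ± 0.04). Oas2 (2.97), Oasl2 (2.97), Ifih1, a sensor of double-stranded RNA (2.75), and Usp18, which limits interferon signalling (2.72), were within the 12 largest rises. All 8 measured guanylate-binding and immunity-related GTPases rose (median 2.03, and 1.59 without isoproterenol), led by Iigp1 (2.72 ± 0.17) and Ifi47 (2.54 ± 0.17). Among factors of the pathway, Irf7 read 10.86, 10.99 and 11.02 with TBLR1 shRNA, against 8.74, 8.55 and 8.50 with control shRNA (2.36 ± 0.06). Stat2 (0.93), Jak2 (0.83), Irf2 (0.78) and Irf9 (0.77) rose as well, 10 of the 23 measured factors and interferons being higher and 1 lower, and Ifnb1, the interferon β gene, rose by 0.33 ± 0.04 at levels of 6.77, 6.80 and 6.74, against 6.42, 6.37 and 6.53 with control shRNA, close to the floor. Control array 1 with isoproterenol stood above the other control arrays in these genes: the 24 effectors averaged 0.02 on it and -0.29 and -0.26 on the others, relative to the mean of control cells without isoproterenol, against 1.68 to 1.76 on the TBLR1 shRNA arrays. Without that control array, 23 effectors were still called higher and 1 lower.

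Antigen presentation genes were mostly higher, and some chemokine genes were. Of 18 genes of class I antigen presentation 15 rose and 2 fell (median 0.89, and 0.69 without isoproterenol). Psmb9, an immunoproteasome subunit, read 10.89, 10.95 and 11.01 with TBLR1 shRNA, against 8.36, 8.31 and 8.23 with control shRNA (2.65 ± 0.05, 6.26-fold, adjusted p = 7.72e-15). Psmb8, another such subunit (1.99), the class I gene H2-M3 (1.78) and the peptide transporter Tap1 (1.45) rose as well, whereas the chaperones Canx (-0.39) and Calr (-0.18) fell; the call of Calr ended in 5 of the 6 fits with an array left out (-0.22 to -0.14). Of 19 chemokines 7 rose, 2 fell and 10 did not pass (median 0.06). Ccl5, which attracts T cells and monocytes, read 13.32, 13.32 and 13.42 with TBLR1 shRNA, against 9.12, 8.75 and 9.00 with control shRNA (4.39 ± 0.10, 21-fold). Cxcl10, an interferon-induced T cell attractant, read 12.87, 12.76 and 12.82, against 8.97, 8.43 and 8.46 with control shRNA (4.19 ± 0.17, 18.3-fold). For both the knockdown effect was larger with isoproterenol than without, by 1.13 ± 0.24 for Cxcl10 and by 0.55 ± 0.14 for Ccl5 (adjusted p = 0.0223 and 0.0479). Leaving out any one of 5 arrays ended the call for Cxcl10 (0.88 to 1.30), and any one of 10 that for Ccl5 (0.44 to 0.68). Ccl8 (1.92), Ccl2 (1.22) and Ccl7 (0.69) were also higher, and Cxcl5 was lower (-0.32). Macrophage markers were measured beside these genes: of 15, 3 rose and 1 fell, and their mean was 6.64 to 6.65 with TBLR1 shRNA and 6.41 to 6.46 with control shRNA. The rise came from Mpeg1 (2.42), Cd14 (0.69) and Ctss (0.33). Of the other markers, Adgre1, Itgam, Mrc1 and Lyz2 averaged between 5.93 and 6.35 in both groups, near the floor, and none of these passed. Csf1r was measured too but is not detailed here, and Cd68 was not analysed. The lowest difference in the list was -0.22, and 13 of the 15 markers lay below the median level of all probe sets. Of 18 nucleic acid sensing genes 9 rose and 2 fell (median 0.24), with Tlr3 (1.08) and Sting1 (0.90) higher and the adaptors Tank (-0.32) and Mavs (-0.26) lower. NF-κB feedback genes were mixed, 6 higher and 4 lower of 21 (median 0.02), against 19.5% and 22.2% over all probe sets, with the inhibitor Nfkbia lower (-0.46). Mavs was not called on the hybridisation control scale (-0.15).

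**Figure D4:**
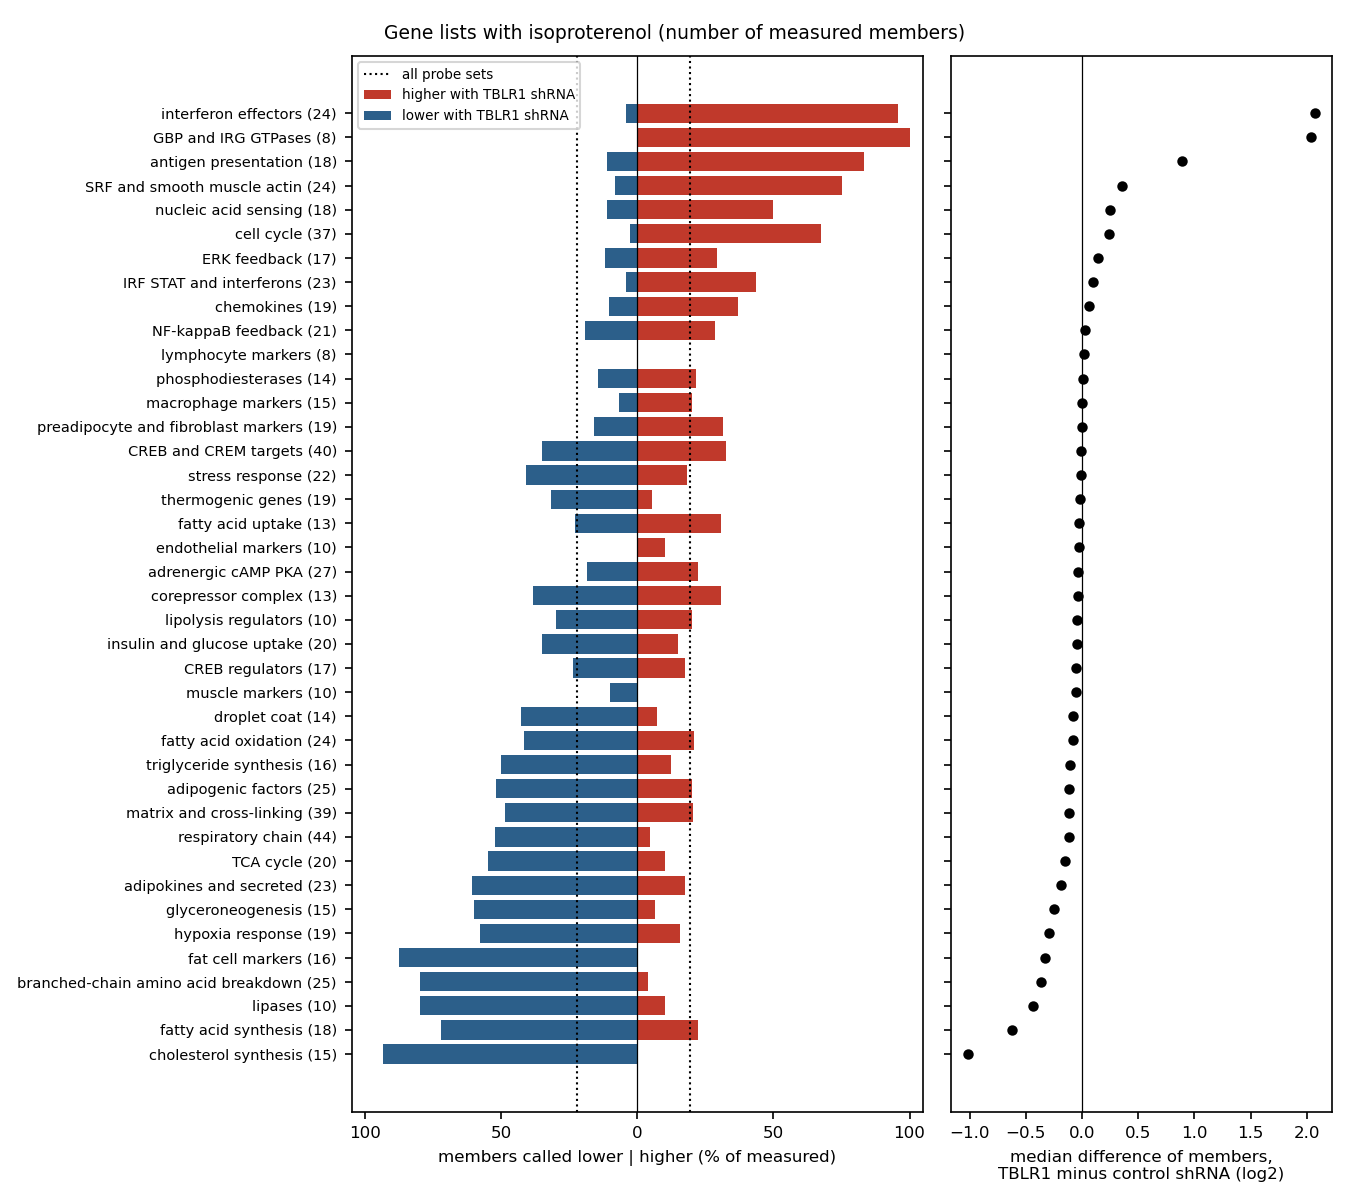
Left, share of the measured members of each of 40 gene lists that were called higher (red) or lower (blue) with TBLR1 shRNA under isoproterenol; dotted lines mark the shares over all probe sets, 19.5% and 22.2%. Right, median log2 difference of the members, which runs between -1.01 for cholesterol synthesis and 2.07 for interferon effectors.

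Growth, stress and structural genes formed the remaining groups. Without isoproterenol the median knockdown effect was 0.22 for cell cycle genes, 0.30 for serum response factor and actin genes and -0.17 for matrix genes. It was 0.17 for ERK feedback, -0.0026 for hypoxia, 0.02 for stress response and 0.05 for insulin and glucose uptake genes. In the list of ERK feedback genes 5 of 17 rose and 2 fell (median 0.14), against 14 and 1 (median 0.25) on the hybridisation control scale: the phosphatases Dusp5 (9.27, 9.35 and 9.31 with TBLR1 shRNA, against 7.68, 7.64 and 7.82 with control shRNA) and Dusp6 rose by 1.59 ± 0.12 and 1.46 ± 0.13. Of 24 targets of serum response factor and smooth muscle actin genes 18 rose and 2 fell (median 0.35). Acta2, smooth muscle actin, read 12.67, 12.87 and 12.75 with TBLR1 shRNA, against 11.41, 11.29 and 11.27 with control shRNA (1.44 ± 0.05), and Thbs1, which encodes thrombospondin-1, rose by 2.21 ± 0.13 and Tagln by 1.38 ± 0.06. Among 39 matrix genes 19 fell and 8 rose (median -0.12), against 13 and 11 (median -0.0035) on the hybridisation control scale. Lox, the lysyl oxidase that cross-links collagen, read 8.28, 8.63 and 8.37, against 10.28, 10.19 and 10.16 with control shRNA (-1.78 ± 0.08), while its relative Loxl3 read 10.05, 10.24 and 10.10, against 7.83, 7.64 and 7.67 with control shRNA (2.42 ± 0.07). These enzymes of the same family thus moved in opposite directions. Lum, which encodes the proteoglycan lumican, fell by 1.12, and Timp1 (1.40) and Tnc (1.34) rose. Of 37 cell cycle genes 25 rose and 1 fell, with a median of 0.24; the replication helicase subunit Mcm6 rose by 0.98 ± 0.05, Rrm2 by 0.74 and cyclin D1, Ccnd1, by 0.70, and the inhibitor Cdkn1a fell by 0.58 ± 0.06. In the hypoxia list 11 of 19 fell and 3 rose (median -0.29), with Egln3 at -1.16 ± 0.19, and the glucose transporter Slc2a1 rose by 0.92 ± 0.09 while the insulin-responsive Slc2a4 fell by 0.36 ± 0.04. In the list of insulin signalling and glucose uptake 7 of 20 genes fell and 3 rose (5 and 4 on the hybridisation control scale). In the stress response list Ddit3 and Herpud1 (0.99), a gene of the endoplasmic reticulum, rose, while 9 of 22 members fell, among them the phosphatase subunit Ppp1r15a (-0.38); on the hybridisation control scale 6 rose and 4 fell.

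The largest fall of the table was Bicc1, an RNA-binding protein, at 7.95, 7.90 and 7.91 with TBLR1 shRNA, against 9.76, 9.76 and 9.74 with control shRNA (-1.83 ± 0.04, adjusted p = 2.11e-14), which left 28.1% of the control signal. The others of the 12 largest falls not yet named were Pon2, a paraoxonase (-1.62), the transporter Abca8a (-1.61), Nrn1, which encodes neuritin (-1.58), the galactosyltransferase B3galt2 (-1.41) and the aldehyde dehydrogenase Aldh1a7 (-1.39). Frmd4a, a scaffold protein, was the largest rise outside the immune genes (2.73 ± 0.13, 6.62-fold). Among subunits and partners of the corepressor complex 5 of 13 fell and 4 rose, Tbl1xr1 itself included (2 and 4 on the hybridisation control scale). Its paralogue Tbl1x fell by 0.24 ± 0.05, the deacetylase Hdac3 fell by 0.20 ± 0.04 and Cops2 fell by 0.17 ± 0.04, and Rere, an atrophin corepressor, read 10.04, 10.20 and 10.20, against 10.57, 10.48 and 10.59 with control shRNA (-0.40 ± 0.06). The scaffold gene Sin3a rose by 0.41 ± 0.04. Rcor1 rose by 0.44 ± 0.12, but its groups overlapped, at 8.05, 7.56 and 7.54 with TBLR1 shRNA, against 7.19, 7.55 and 7.09 with control shRNA, and its call ended without TBLR1 shRNA array 1 or control array 3 (0.27 to 0.58). Tbl1x (-0.13), Hdac3 (-0.09) and Cops2 (-0.06) were not called on the hybridisation control scale.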

How the data were processed

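RNA of 12 samples of 3T3-L1 adipocytes was measured on Affymetrix expression arrays with biotin-labelled cRNA, per the labels' protocols. The deposited table gives log2 expression levels, from 5.39 to 14.58, which were already on one distribution, judged from the values: sorted values differed by at most 0.00781 between arrays. Background correction, probe summarisation and software were not stated by the labels, and such scaling removes any change of total RNA. No read counts or depths exist for arrays, and their number, 3 a group, limits the precision. The median SD within a group was 0.0486 to 0.0531.

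Of 16553 probe sets, 61 controls and 1222 without a gene symbol were left out. Symbols came from the platform's annotation, and a lookup by gene ID changed none of them. The 15270 tested probe sets stood for 15267 genes. Arrays were grouped by their labels. One limma model (version 3.58.1, R 4.3.3) with 4 group means gave all contrasts, with 8 residual and 7.38 prior degrees of freedom, and p-values were adjusted by Benjamini-Hochberg over all tested probe sets. The procedure was tested on simulated data. The alternatives were the 6 stimulated arrays alone, a replicate block, trended and robust variances, array weights, a filter on dim probe sets, cyclic loess, centring on 18 hybridisation control probe sets, 1 probe set per gene, a stricter threshold, and each array left out. Figures were drawn with matplotlib 3.10.9.

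Genes named are Tbl1xr1, Lipe, Pnpla2 and Pck1, the 12 largest rises and falls without overlap, the 12 most positive and negative differences between knockdown effects, up to 6 called members of each of 40 gene lists and those moving against their list's majority, and any member of the lipid release, cAMP, CREB and corepressor lists. Ggps1, Ifnb1, Ucp1 and Pparg were added after their values were seen, and cell markers were named for the check of the cell type. The members and lists were chosen with earlier results of these data known.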

Additional observations from a re-analysis of the deposited data

Results flagged for a closer look

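For 43 genes named in the text, the knockdown effect with isoproterenol differed from that without it by the test of the difference (limma, adjusted p under 0.05 over all tested probe sets). Values are the effect with isoproterenol minus that without, in log2 units, and none is explained here.

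Of Pck1 and the genes listed as CREB and CREM targets or as part of cAMP signalling, more negative effects under isoproterenol were found for Pck1 (-1.57), Irs2 (-1.42), Fos (-1.29), Nr4a1 (-1.18), Ppargc1a (-1.09), Nfil3 (-1.07), Rasd1 (-1.03), Klf4 (-0.83), Nr4a2 (-0.60), Crem (-0.51), Sik1 (-0.43), Pde4b (-0.34) and Akap1 (-0.34). Akap8 (0.23) and Sgk1 (0.69) had more positive ones.

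Among genes of lipid metabolism, the fat cell and its secreted products, the values were -0.52 for Vegfa, -0.45 for Hcar2, -0.43 for Lpin1, -0.41 for Nrg4, -0.39 for Cebpa, -0.38 for Hilpda and 0.66 for Metrnl.

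The immune genes named with a called difference had more positive effects: Cxcl10 (1.13), Cd274 (0.74), Ccl5 (0.55), Irf2 (0.38), Stat2 (0.35) and Jak2 (0.30). The calls of Irf2, Stat2 and Jak2 were lost in 8, 9 and 8 of the 12 fits with an array left out, and the difference was called for 0 of 24 interferon effectors and 0 of 8 GTPases (limma, with an unadjusted p under 0.05 at 7 and 2).

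Of the others, Cenpu (-1.10), Prom1 (-1.03), Plk3 (-0.97), Noct (-0.92), Fbxo21 (-0.87), Dusp6 (-0.77) and Ppp1r15a (-0.55) had more negative effects. More positive ones were found for Errfi1 (0.81), Ddit3 (0.73), Hbegf (0.73), Serpinb2 (0.73), Klf6 (0.64), Thbd (0.63), Snai2 (0.61) and Herpud1 (0.51).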

How the results depend on the processing

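No called difference of a named gene changed sign under the alternatives tried, but the balance of higher and lower calls did. As deposited, the knockdown under isoproterenol was called at 6372 probe sets and the difference between knockdown effects at 366. Centring on hybridisation controls moved the split to 5114 higher and 1701 lower, against 2975 and 3397. It also turned the majority of several lists, such as the CREB regulators (7 higher and 2 lower, against 3 and 4) and the stress response (6 and 4, against 4 and 9). In addition, an adjusted p under 0.01 left 132 called differences. With each array left out in turn, the knockdown count was 5829 to 6023 (2711 to 2834 higher, 3104 to 3192 lower). The difference count was 198 to 385: it was 228 and 198 without TBLR1 shRNA arrays 2 and 3 with isoproterenol, 232 and 218 without control arrays 2 and 3 with isoproterenol, 221 and 237 without TBLR1 shRNA arrays 2 and 3 without isoproterenol, and 235 without control array 2 without isoproterenol. The size of this count thus varied with the array left out. Each of these fits also had fewer arrays in a group. The effect of a particular array and that of fewer arrays cannot be told apart, and the cause was not tested.

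The shared replicate numbers did not pair the arrays: deviations of same-numbered arrays correlated at -0.209 to 0.183. With the replicate number as a block, 6279 and 320 probe sets were called, and the calls for the differences of Ccl5, Errfi1 and Hcar2 ended. The other alternatives at the same threshold gave 6158 to 6821 and 355 to 503 calls, apart from 252 called differences on the hybridisation control scale, and an adjusted p under 0.01 gave 5121 for the knockdown. Of the 195 named genes, 182 were called for the knockdown, and 10 of these lost the call with some array left out and 13 with hybridisation control centring. Of the 43 called for the difference, 15 and 4 did. Trended and robust variances ended the difference calls of Ccl5, Cxcl10, Dusp6, Errfi1, Hbegf, Klf6 and Nr4a2. No detection calls or background signals were used here, so probe sets near the floor have no bound of their own.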
